A study of Homo sapiens with 4 samples.

Results

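The 10 genes described here belong to the Hippo pathway or to the transcriptional complex it controls: WWTR1 (the gene of TAZ), TEAD3, TEAD4, VGLL1, VGLL3, VGLL4, LATS1, WWC1 (the gene of KIBRA), PTPN14 and NF2 (the gene of merlin). They were chosen by name, as paralogs and cofactors of the better known YAP1, TEAD1, TEAD2 and LATS2, and are 10 of the 58825 gene rows of the count files. Expression was measured by RNA sequencing in LoVo, an established colon adenocarcinoma line whose MET receptor stays uncleaved and active without its ligand. The groups are 2 biological replicates of MET+ cells, wild type for MET and labelled as GFP control, and 2 of MET-KO cells, in which MET was knocked out with CRISPR/Cas9. Knockout clones were picked singly and selected by western blot, and whether the MET-KO libraries share a clone of origin is not stated in the methods.

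The Hippo pathway is a kinase cascade. The MST kinases, helped by scaffolds at the cell cortex such as NF2 and WWC1, activate the LATS kinases, and these phosphorylate YAP and TAZ, which then stay in the cytoplasm or are degraded. Unphosphorylated YAP and TAZ enter the nucleus and act through TEAD factors, which supply the DNA binding that YAP and TAZ lack. VGLL proteins bind TEAD in place of YAP or TAZ, and in epithelia the pathway is known for reading cell density, junctions and mechanical tension.

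In MET-KO cells WWTR1 was 7.15 times lower and TEAD4 2.11 times lower than in MET+ cells, PTPN14 rose 6.34-fold, and VGLL4 was 1.40 times lower. TEAD3, VGLL3, LATS1, WWC1 and NF2 did not pass the test, and VGLL1 had 0 counts in every library. Of the 9 genes expressed enough to be tested, 1 was called higher and 3 lower by the quasi-likelihood F-test of edgeR, at a Benjamini-Hochberg adjusted p of 0.05 over 13801 genes. With a log2 fold change of at least 1 in size asked for as well, PTPN14, WWTR1 and TEAD4 stayed, against 14.5% of all tested genes on the higher and 9.81% on the lower side. Among all tested genes 54.1% were called, 27.2% higher and 26.9% lower, so 4 calls among 9 genes is not more than the background. The groups did not overlap for 8 of the 9, against 75.6% of all tested genes, with 2 above (38.5% of all) and 6 below (37.1% of all). The median log2 fold change (MET-KO over MET+) of the 9 was -0.20, against 0.01 over all tested genes.

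The libraries held 8429142 to 10286552 counts, and mitochondrial genes took 12.4% to 15.4% of them. MET itself went from 336 ± 1.26 to 86.5 ± 3.12 CPM (CPM, the counts of a gene per 1e+06 counts of the scaled library, mean ± SD, n = 2 each), or -1.96 as a log2 fold change. Of 14 markers of intestinal and simple epithelium, 13 were tested, and 10 were called lower and 2 higher in MET-KO cells (92.3% called, against 54.1% of all tested genes). Their summed level was 9824 and 9871 CPM in MET+ and 8319 and 7333 CPM in MET-KO libraries. KRT18, KRT19 and KRT8 made up most of that sum, with means of 6011, 1642 and 1343 CPM in MET+ and 4870, 1347 and 1181 CPM in MET-KO cells. EPCAM, CDH1, CDX2, KRT8, KRT18 and KRT19 were present in all 4 libraries. Among them EPCAM, CDH1, KRT18 and KRT19 were called lower, CDX2 was called higher and KRT8 was not called. LGALS4, VIL1, LGR5 and HNF4A were called lower, with log2 fold changes of -6.66, -4.23, -3.55 and -3.43. CEACAM5 and GPA33, also called lower, were at 0 in both MET-KO libraries. KRT20, called higher, was at 0 in both MET+ libraries, and CDX1 was at 0 in all 4 libraries. A list of 8 basal and squamous markers summed to 27.4 and 33.0 CPM in MET+ and to 97.2 and 85.3 CPM in MET-KO libraries. Of that list 5 genes were tested, 3 were called higher and 2 lower. KRT13 went from 1.66 to 79.7 CPM and made up most of the MET-KO sum, while KRT6A and DSG3, which made up most of the MET+ sum, went from 14.7 to 0.627 and from 11.4 to 0.138 CPM. TP63, a defining basal marker, had 1 count in a single MET+ library. The summed level was 2.17 and 1.64 against 3.82 and 4.32 CPM for 10 fibroblast markers, 4.83 and 8.61 against 0.489 and 0.735 CPM for 6 leukocyte markers, and 0.845 and 0.922 against 0.0979 and 0 CPM for 5 endothelial markers (MET+ against MET-KO). LYZ alone gave 4.58 and 8.10 CPM of the leukocyte sum in MET+ libraries and was the only gene of that list with enough counts to be tested. The defining markers DCN, PTPRC and CDH5 were at 0 in all libraries. Of 9 genes of chromosome Y, 8 had counts in both MET-KO libraries, and all 9 were at 0 in both MET+ libraries. A difference between the cell populations that MET did not cause cannot be told apart from an effect of MET in any comparison that follows, and the part of these marker shifts in the results was not tested.

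WWTR1 encodes TAZ, the coactivator that shares its TEAD-binding and WW domains with YAP. WWTR1 (ENSG00000018408, GRCh38 chromosome 3, 149517235 to 149736714, minus strand) was counted 868 and 1133 times in the MET+ and 158 and 168 times in the MET-KO libraries. Scaled to library size this was 105 and 116 CPM in MET+ and 15.5 and 15.4 CPM in MET-KO cells. The groups did not overlap, and the MET-KO replicates were nearly equal. The mean fell from 110 ± 8.05 to 15.5 ± 0.018 CPM (SD, n = 2 each). The fitted log2 fold change was -2.84 ± 0.12 (standard error), with an edgeR adjusted p of 4.35e-20. By p-value WWTR1 ranked 139 among the 13801 genes tested. A gene antisense to it, WWTR1-AS1, and an intronic transcript had at most 5 counts in any library.

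YAP1, the paralog of WWTR1, went the other way, from 40.9 and 36.2 CPM in MET+ to 70.2 and 71.7 CPM in MET-KO libraries, with a median log2 fold change of 1.44 over the 15 tested genes within 5 Mb of it. Since the 3′ method counts about a single fragment per transcript, CPM values of different genes were set side by side without division by length, although capture at each gene's 3′ end can still differ. On this scale WWTR1 made up 71.9% and 76.2% of the summed CPM of YAP1 and WWTR1 in MET+ libraries, and 18.1% and 17.7% in MET-KO libraries. The log2 ratio of WWTR1 to YAP1 within a library moved from 1.36 and 1.68 to -2.18 and -2.22, a quantity that does not depend on how the libraries are scaled. The sum of both genes was lower in MET-KO libraries, at 85.6 and 87.1 CPM against 146 and 152 CPM, because the fall of WWTR1 was larger in CPM than the rise of YAP1.

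The TEAD genes, which encode the DNA-binding partners of YAP and TAZ, did not change alike. TEAD4 (ENSG00000197905, chromosome 12, 2959330 to 3040673) was counted 641 and 750 times in MET+ and 381 and 388 times in MET-KO libraries, or 77.3 and 76.9 CPM against 37.3 and 35.7 CPM. Replicates lay close together and the groups were far apart. The mean fell from 77.1 ± 0.337 to 36.5 ± 1.2 CPM (SD, n = 2 each). The fitted log2 fold change was -1.08 ± 0.11 (standard error), with an edgeR adjusted p of 3.55e-10. TEAD3 (ENSG00000007866, chromosome 6, 35473597 to 35497076, minus strand), at 15.6 and 14.5 CPM in MET+ and 12.8 and 13.3 CPM in MET-KO libraries, did not pass the test. Its log2 fold change was -0.20 with a 95% interval from -0.57 to 0.17 (adjusted p = 0.364, edgeR). Either a fall down to -0.57 or a rise up to 0.17 is thus within the data.

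The other TEAD genes rose, TEAD1 by a log2 fold change of 1.23 and TEAD2 by 5.09 from 3 and 4 counts in the MET+ libraries. The summed CPM of the 4 TEAD genes was 150 and 144 in MET+ and 188 and 194 in MET-KO libraries. TEAD4 was the largest contributor in MET+ cells, with 51.5% and 53.4% of that sum, and fell to 19.9% and 18.4% in MET-KO cells. TEAD1 went from 37.9% and 36.2% to 65.7% and 67.9%, and TEAD2 from 0.241% and 0.285% to 7.62% and 6.74%. TEAD3 gave 10.4% and 10.1% in MET+ and 6.84% and 6.89% in MET-KO libraries. In all 4 shares the groups did not overlap.

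**Figure D1:**
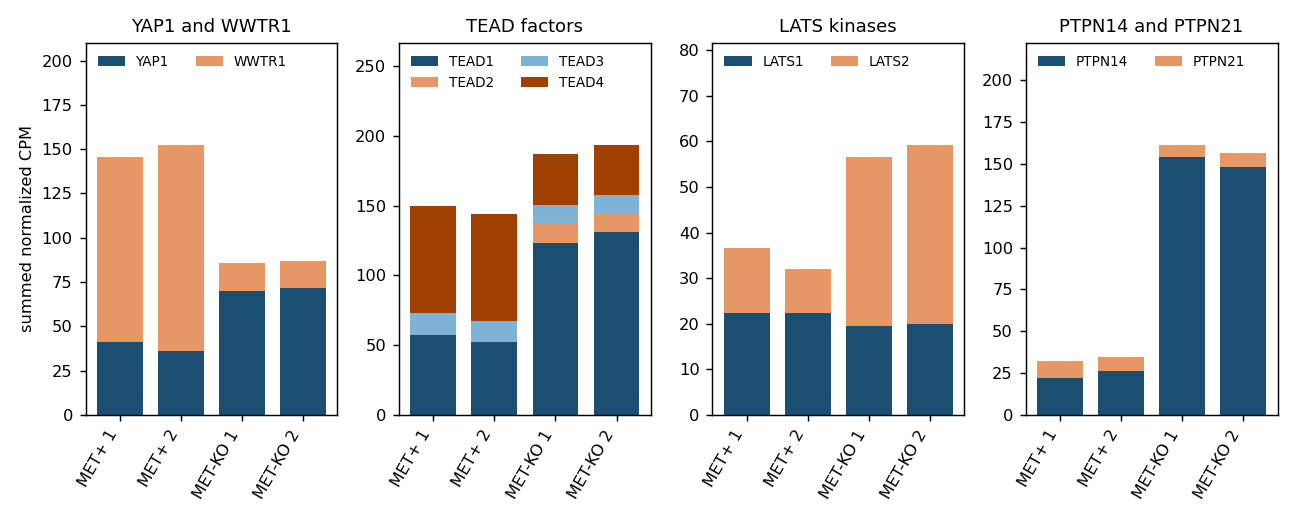
Stacked bars of summed normalized CPM for 4 sets of paralogs in each of the 4 libraries, from a zero baseline. WWTR1 dominates its pair in MET+ and YAP1 in MET-KO libraries, TEAD4 gives way to TEAD1, LATS2 adds to a nearly level LATS1, and PTPN14 makes up almost all of its pair in MET-KO libraries.

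VGLL proteins compete with YAP and TAZ for TEAD, and VGLL4 is known as a repressor of YAP-dependent transcription. VGLL4 (ENSG00000144560, chromosome 3, 11556070 to 11771350, minus strand) had 25.2 and 25.6 CPM in MET+ and 17.8 and 18.6 CPM in MET-KO libraries, and the groups did not overlap. Its mean went from 25.4 ± 0.286 to 18.2 ± 0.530 CPM (SD, n = 2 each), and the fit gave -0.48 ± 0.15 (standard error) on the log2 scale, with an edgeR adjusted p of 0.0074. The call was lost with DESeq2's Wald test (adjusted p = 0.0822) and in edgeR without MET-KO replicate 1 (adjusted p = 0.0504). The annotated 3′ end of VGLL4 shares 1596 bases with ATG7 on the opposite strand. ATG7 was counted 66 and 62 times in MET+ and 80 and 111 times in MET-KO libraries, where VGLL4 was counted 209, 250, 182 and 202 times, and the strand setting used for counting is not given in the sources used here.

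VGLL3, another TEAD cofactor, was expressed at a low level. VGLL3 (ENSG00000206538, chromosome 3, 86876388 to 86991119, minus strand) was counted 40 and 44 times in MET+ and 39 and 29 times in MET-KO libraries, or 4.83 and 4.51 against 3.82 and 2.66 CPM. The fitted log2 fold change was -0.53 with a 95% interval from -1.21 to 0.15 (adjusted p = 0.186, edgeR), and at this depth the interval is the widest of the 9 tested genes. It was -0.28 without MET-KO replicate 2 and -0.81 without MET-KO replicate 1, and passed the test in neither case. VGLL1 (ENSG00000102243, chromosome X, 136532152 to 136556807) had 0 counts in all 4 libraries, and a count of 0 still allows up to 3 counts, which is worth 0.276 to 0.362 CPM depending on the library (counting error only). VGLL2 was at 0 as well.

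LATS1 encodes one of the kinases that phosphorylate YAP and TAZ. LATS1 (ENSG00000131023, chromosome 6, 149658153 to 149718256, minus strand) had 22.3 and 22.4 CPM in MET+ and 19.5 and 20.03 CPM in MET-KO libraries. The groups did not overlap, yet the difference was small, with a log2 fold change of -0.18, a 95% interval from -0.49 to 0.13 and an edgeR adjusted p of 0.333. LATS2, which also belongs to the genes that respond to YAP, rose by 1.69 on the same scale. The log2 ratio of LATS1 to LATS2 within a library therefore moved from 0.64 and 1.24 in MET+ to -0.93 and -0.97 in MET-KO cells. In CPM, LATS1 supplied 60.9% and 70.2% of the LATS sum in MET+ and 34.4% and 33.9% in MET-KO libraries, while the sum rose from 36.7 and 32.0 to 56.7 and 59.2 CPM. An antisense gene that overlaps the 5′ end of LATS1, AL358852.1, had 4 to 20 counts per library.

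NF2 and WWC1 act upstream of the LATS kinases as scaffolds at the membrane. NF2 (ENSG00000186575, chromosome 22, 29603556 to 29698598) had 55.9 and 43.6 CPM in MET+ and 61.8 and 53.5 CPM in MET-KO libraries. It was the only one of the 9 tested genes whose groups overlapped, since the first MET+ library exceeded the second MET-KO library. Its log2 fold change was 0.22 with a 95% interval from -0.03 to 0.46 (adjusted p = 0.13, edgeR). That value depended on single libraries: it was 0.41 (adjusted p = 0.0132) without MET+ replicate 1 and 0.32 (adjusted p = 0.0493) without MET-KO replicate 2, both from edgeR. Without MET+ replicate 2 it was 0.037, and without MET-KO replicate 1 it was 0.11.

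WWC1 (ENSG00000113645, chromosome 5, 168291651 to 168472303) had 62.5 and 65.1 CPM in MET+ and 75.9 and 69.9 CPM in MET-KO libraries. The groups did not overlap, but the log2 fold change of 0.19, with a 95% interval from -0.02 to 0.41, did not pass (adjusted p = 0.123, edgeR). Its paralogs did pass. WWC2 rose from 30.4 and 36.2 to 53.3 and 57.3 CPM, a log2 fold change of 0.73 (adjusted p = 4.53e-06, edgeR), and WWC3 from 4.34 and 2.77 to 6.26 and 9.28 CPM, a log2 fold change of 1.15 (adjusted p = 0.00178, edgeR). WWC1 remained the larger part of the family sum, with 64.3% and 62.6% in MET+ and 56.0% and 51.2% in MET-KO libraries.

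PTPN14 encodes a phosphatase of the non-receptor class that binds the WW domains of YAP and is known both to restrain YAP and to be among the genes YAP induces. PTPN14 (ENSG00000152104, chromosome 1, 214348696 to 214552449, minus strand) was counted 181 and 253 times in MET+ and 1577 and 1615 times in MET-KO libraries, or 21.8 and 25.9 CPM against 154 and 148 CPM. The spread within groups was small beside the gap between them. The mean rose from 23.9 ± 2.89 to 151 ± 4.20 CPM (SD, n = 2 each). The fitted log2 fold change was 2.66 ± 0.11 (standard error), with an edgeR adjusted p of 5.18e-20. PTPN21, its closest paralog, had 10.5 and 8.71 CPM in MET+ and 6.85 and 8.36 CPM in MET-KO libraries, with a log2 fold change of -0.33 and a 95% interval from -0.80 to 0.14 (adjusted p = 0.236, edgeR). The log2 ratio of PTPN14 to PTPN21 within a library moved from 1.06 and 1.57 to 4.49 and 4.15. A transcript annotated on the same strand that shares 8920 bases with PTPN14, AL929236.1, had 0 counts in every library.

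**Figure D2:**
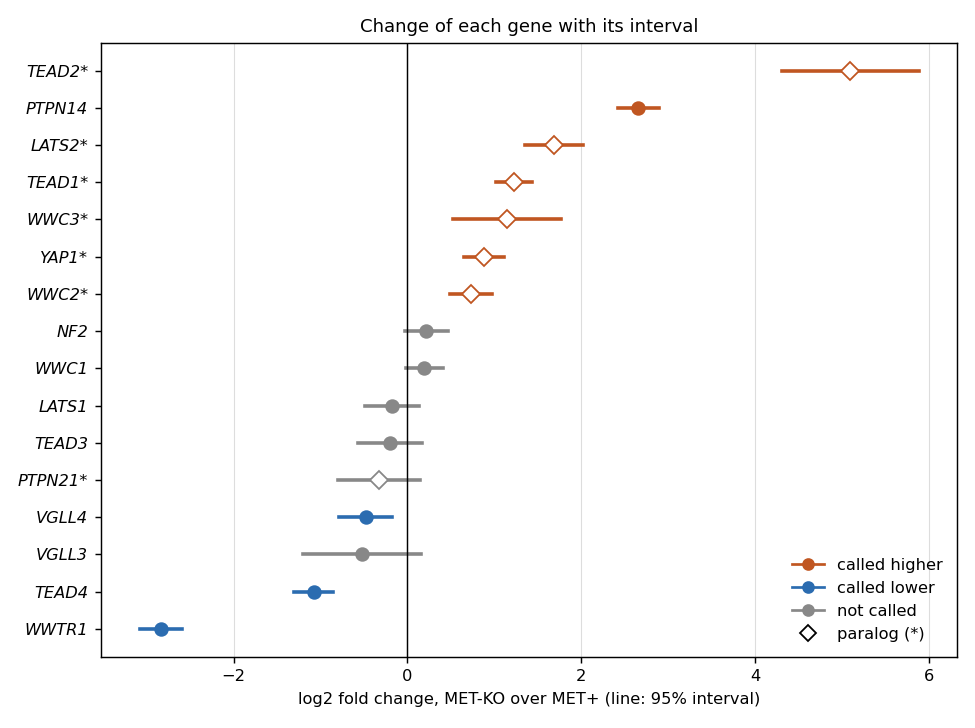
Log2 fold change of MET-KO over MET+ with its 95% interval from the edgeR fit, for the 9 tested genes (filled circles) and 7 paralogs (open diamonds), coloured by the call at an adjusted p of 0.05. PTPN14 at 2.66 and WWTR1 at -2.84 stand at the ends of the 9, and the intervals of NF2, WWC1, LATS1, TEAD3 and VGLL3 include 0.

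The promoters of PTPN14 and WWTR1, the genes with the largest change, are printed with that of YAP1. TEAD factors bind a short element, and the letters show where it occurs. The sequences are from RefSeq on GRCh38.p14 and give the 250 bases before each annotated start, 5′ to 3′ on the gene's strand. Capitals mark GGAATG or its reverse complement CATTCC, the core of the TEAD element, searched on both strands.
PTPN14 at chr1:214551603-214551852, minus strand: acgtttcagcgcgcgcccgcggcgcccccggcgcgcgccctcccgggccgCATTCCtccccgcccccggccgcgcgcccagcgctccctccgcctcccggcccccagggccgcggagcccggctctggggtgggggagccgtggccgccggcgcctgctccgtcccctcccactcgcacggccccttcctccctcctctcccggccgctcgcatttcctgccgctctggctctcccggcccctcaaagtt
WWTR1 start nearer the gene's 3′ end at chr3:149658026-149658275, minus strand: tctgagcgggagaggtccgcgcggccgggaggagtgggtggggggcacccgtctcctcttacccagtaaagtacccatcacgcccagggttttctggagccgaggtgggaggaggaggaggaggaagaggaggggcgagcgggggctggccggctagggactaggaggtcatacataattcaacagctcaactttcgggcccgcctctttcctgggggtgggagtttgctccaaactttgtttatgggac
WWTR1 start farther upstream at chr3:149703274-149703523, minus strand: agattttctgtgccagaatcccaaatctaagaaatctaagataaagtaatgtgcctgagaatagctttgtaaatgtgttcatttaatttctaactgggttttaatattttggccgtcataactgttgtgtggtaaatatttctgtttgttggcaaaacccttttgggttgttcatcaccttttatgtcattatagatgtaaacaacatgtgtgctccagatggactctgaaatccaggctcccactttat
YAP1 at chr11:102110197-102110446, plus strand: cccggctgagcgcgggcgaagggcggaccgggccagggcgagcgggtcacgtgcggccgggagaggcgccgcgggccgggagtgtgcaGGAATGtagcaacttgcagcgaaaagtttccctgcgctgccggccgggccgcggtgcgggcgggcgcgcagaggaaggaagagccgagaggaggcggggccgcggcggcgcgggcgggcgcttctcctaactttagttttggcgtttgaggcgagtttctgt

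In PTPN14 the element CATTCC lies 194 bases before the RefSeq start used here, and in YAP1 GGAATG lies 156 bases before its start. Neither WWTR1 window holds these letters, although they differ in composition, with 62.0% and 35.2% G and C. Both WWTR1 windows lie inside the annotated gene, whose 5′ end is at 149736714. The PTPN14 window also lies inside its annotated gene, whose 5′ end is at 214552449, and so do the VGLL4 windows in theirs. For WWTR1, PTPN14 and VGLL4 the outermost start was thus not searched. Of the 10 genes, all but TEAD4 had at least 1 window, 16 windows in all. Of these 9 genes, 2 held the element, PTPN14 and the silent VGLL1, the latter 151 bases before its start. TEAD2, with 2 windows, and LATS2, with 1, did not hold these letters, and their log2 fold changes were 5.09 and 1.69, against 0.88 for YAP1. In the list of YAP and TAZ target genes described below, 16 genes had a window and 8 held the element, a count of genes and not of windows. The part of this element in any change was not tested. Counted by window, 2 of the 16 windows of these genes held the element, against 11.9% of all 35116 windows of that length. A match is a string of letters and not a measured binding site, and no binding was measured here.

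The median log2 fold change differed between chromosomes, and each gene's change is given here beside that of its surroundings. On chromosome 12 the 762 tested genes had a median of -0.32, and the 82 tested genes within 5 Mb of TEAD4 a median of -0.57, of which 54.9% were called lower. TEAD4, at -1.08, stood at percentile 14.6 of its chromosome. On chromosome 5 the 617 tested genes had a median of -0.43, with -0.38 over the 27 within 5 Mb of WWC1, and WWC1 at 0.19 stood at percentile 78.9. WWTR1, VGLL3 and VGLL4 share chromosome 3, whose 785 tested genes had a median of 0.14. They stood at percentiles 1.78, 15.3 and 16.9 there, and the medians within 5 Mb were -0.22 around WWTR1, -0.33 over only 4 genes around VGLL3 and -0.01 around VGLL4. On chromosome 1, with 1419 tested genes and a median of 0.06, PTPN14 stood at percentile 95.8, and the median within 5 Mb was 0.28. TEAD3 and LATS1 stood at percentiles 32.9 and 34.4 of the changes on chromosome 6, whose median was 0.08, and NF2 at percentile 57.8 of those on chromosome 22. The part of these regional shifts in the changes of single genes was not tested.

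The rest of the pathway was read from 6 lists, whose counts stand against 54.1% of all tested genes called, 27.2% higher and 26.9% lower. Of the 17 kinases and adaptors of the cascade, all were tested, 4 were called higher and 3 lower, and 10 did not pass, so that 41.2% were called, with a median log2 fold change of 0.17. The core kinase genes STK3 and STK4, which encode the MST kinases, did not pass, with log2 fold changes of 0.08 and 0.21, and SAV1, the gene of their adaptor, was called lower at -0.44 on chromosome 14, where the median of tested genes was -0.51. STK38L, the gene of a kinase related to LATS1, rose from 25.5 to 113 CPM and LATS2 was the other of the largest rises. The kinases TAOK3 and TAOK1, which can activate MST kinases, fell from 96.7 to 32.8 and from 64.2 to 42.7 CPM. TAOK3 lies on chromosome 12, in a region with a median of -0.57 within 5 Mb.

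Among 25 scaffolds of the cortex and junctions, 21 were tested, of which 11 passed as higher and 3 as lower (66.7% called, against 54.1% of all tested genes), and their median was 0.58. Without PTPN14, NF2 and WWC1, 10 of 18 were higher and 3 lower, with the same median of 0.58. PARD6B, the gene of a polarity complex subunit, rose from 6.10 to 61.5 CPM, more than PTPN14 on the log2 scale (3.33 against 2.66). CRB3, which encodes an apical polarity protein, and LLGL2, which encodes a basolateral one, fell from 36.3 to 16.9 and from 104 to 42.7 CPM. AMOTL1 was at 0 counts in all libraries. FAT4 and DCHS1 had too few counts to be tested.

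The 16 genes of the STRIPAK phosphatase complex and of LIM proteins, which hold the kinases back, were all tested. Of them 7 were called lower and 1 higher (50% called), and the median was -0.17. STRN3, the gene of a STRIPAK scaffold, fell from 75.4 to 40.6 CPM on chromosome 14, where the median is -0.51, and STRIP2 from 9.69 to 3.88 CPM on chromosome 7, which has a median of 0.50. The 1 higher gene was PPP2R1A, a phosphatase 2A scaffold, at 40.1 and 51.1 CPM.

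Of 11 genes that act on phosphorylated YAP and TAZ, 3 passed as higher and 3 as lower (54.5% called), and their median was -0.03. BTRC, which encodes the substrate receptor of the ligase that degrades both coactivators, fell from 26.8 to 13.5 CPM, or by 0.98 on the log2 scale (edgeR adjusted p = 2.96e-06). SFN, the gene of a phosphoserine-binding protein of epithelia, fell from 1215 to 483 CPM, while the related YWHAG and YWHAE rose from 119 to 255 CPM and from 308 to 468 CPM. YWHAG lies on chromosome 7, whose median was 0.50, and stood at percentile 75.3 of it.

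The 10 genes of YAP, TAZ, TEAD and VGLL proteins split evenly, with 3 called higher (YAP1, TEAD1 and TEAD2), 3 lower (WWTR1, TEAD4 and VGLL4) and 2 tested but not called (75% of those tested called). Their median log2 fold change was -0.34. All 22 genes of a list known to respond to YAP and TAZ were tested, 17 were called higher and 3 lower (90.9% called), and the median was 2.44. Without PTPN14, 16 of 21 were higher and the median was 2.23. ANKRD1 and RBMS3, at 0 counts in both MET+ libraries, were at least 85.8-fold and 16.2-fold higher, while F3 and NT5E, on the same list, fell from 160 to 11.6 and from 23.4 to 1.67 CPM. The study named ANKRD1, AXL, CTGF and CYR61, with THBS1, PTGS2 and NPPB, from these same samples, so the list is not independent evidence of a direction. Separately, the study reported by quantitative PCR that several YAP1 targets fell when active MET was put back into MET-KO cells. Those cells are not among the libraries used here.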

How the data were processed

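RNA of 2 MET+ and 2 MET-KO LoVo samples, called biological replicates, was sequenced with a QuantSeq 3′ kit. The authors deposited raw read counts per gene, 1 file per library, aligned to GRCh38. The submitters' processing notes name cutadapt 1.16, STAR 2.5.4a, featureCounts 1.6.2 and DESeq2 1.18.1, and the annotation and strand setting are not given in the sources used here. The 99 spike-in rows were all 0 and were left out, and positions came from GENCODE release 29, which held 58552 of the 58825 gene identifiers.

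Genes were filtered with filterByExpr (13801 remained), scaled by TMM and tested with the quasi-likelihood F-test of edgeR 4.0.16 in R 4.3.3, at a Benjamini-Hochberg adjusted p of 0.05. CPM values were computed from the TMM-scaled library sizes. With 2 libraries against 2, an exact permutation test cannot go below p = 0.333, and none was run on the ratios and shares, which are given as values per library. All p-values measure the spread between these libraries only. The pipeline was tested on simulated data in which few genes, with higher mean counts than VGLL3, were changed, equally often up and down. That test does not show how the pipeline performs where, as here, 54.1% of tested genes are called.

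The genes and lists were chosen with earlier results of these data known. Besides the 10 genes, the text names their paralogs, MET and, per list, the 2 largest rises and 2 largest falls among called genes whose mean log2 CPM reached 1. STK3, STK4, SAV1, AMOTL1, FAT4, DCHS1, FBXW11 and the marker genes were named after their values were seen. In total 12 alternatives were run.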

Additional observations from a re-analysis of the deposited data

How the results depend on the processing

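The 9 tested genes kept their direction in all alternatives that were run, and WWTR1, TEAD4 and PTPN14 stayed past the threshold in each. VGLL4 lost its call with DESeq2's Wald test (-0.48, adjusted p = 0.0822) and ranged from -0.51 to -0.46 when each library was left out in turn, with the call lost without MET-KO replicate 1. Scaling by library totals only moved the median log2 fold change of all genes from 0.01 to 0.11 and the share of calls that were higher from 50.3% to 59.2%, and raised the number of the 10 genes called higher from 1 to 3 by adding WWC1 (0.29, adjusted p = 0.0229, edgeR) and NF2 (0.31, adjusted p = 0.0297, edgeR). Leaving out each library in turn gave 1 to 2 genes called higher, and NF2 ranged from 0.037 to 0.41. The arm left with 1 library is then assumed to vary like the other. Asking as well for a log2 fold change of 1 or more in size left 2001 genes higher and 1354 lower, 3 core kinase, 9 scaffold, 1 kinase inhibitor and 2 turnover genes. DESeq2's Wald test called 5433 genes against 7467.

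Libraries with the same replicate number showed no shared shift, as their deviations from the group means correlated at -0.02. That value cannot show whether they were cultured or processed together. With the number as a block, 7055 genes were called, 3544 of them higher, and the same 4 of the 10 genes passed. Depth limited VGLL3 most, at 29 to 44 counts per library.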

Other observations

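The scaffold list held other called genes that the naming rule left out, and those given here were chosen after their values were seen. DLG1, which encodes a basolateral polarity protein, had 17.01 and 16.7 CPM in MET+ and 98.0 and 111 CPM in MET-KO libraries, a log2 fold change of 2.63 (edgeR adjusted p = 5.34e-19). AMOTL2, a gene of the angiomotin family whose proteins hold YAP at junctions, went from 19.1 and 15.99 to 79.3 and 84.1 CPM, and AMOT from 1.21 and 0.615 to 5.19 and 5.24 CPM. FAT1, the gene of a giant cadherin upstream of the kinases, had 87.2 CPM in both MET+ libraries and 185 and 183 CPM in MET-KO libraries. CTNNA1, which encodes alpha-catenin of adherens junctions, fell from 202 and 188 to 153 and 149 CPM, or by 0.37 on the log2 scale, where the median within 5 Mb was -0.48.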
